A study of Mus musculus with 12 samples.

Results

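Interferon-stimulated genes are the genes that cells switch on when they sense interferon. The 43 genes described here were chosen by symbol as members of that response, from the transcription factors that run it to the antiviral proteins it makes. All 43 symbols were found among the 55453 genes of the count table, and all 43 had enough counts to be tested with 18311 genes in all. The table holds RNA-Seq read counts from the skin of 12 mice in 4 groups of 3. WT animals received either PBS (the WT PBS group) or bleomycin (WT BLM), and so did Thy-1–KO animals (KO PBS and KO BLM). Bleomycin is a drug that causes fibrosis where it is injected, and Thy-1 is a surface protein of fibroblasts, T cells and neurons. The mice were C57BL/6 by label, the knockout is global, and the study's methods describe Thy-1–KO females of 8 to 12 weeks and littermate controls. Those methods give daily injections under the back skin at 2 spots, with bleomycin at 10 mg/kg per day for up to 14 days, and the skin was taken on day 21.

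Interferons of type I and type III bind receptors that activate the kinases Jak1 and Tyk2, and Stat2 is among the proteins these phosphorylate. With Irf9 it joins a complex that binds a DNA element called the interferon-stimulated response element (ISRE). Interferon gamma acts mainly at a second element, the gamma-activated site (GAS). The response is best known as a defence against viruses, and it is also seen in skin inflammation and in autoimmune disease, systemic sclerosis among them.

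The DNA elements through which interferon acts were looked for in the 250 bases before each RefSeq transcription start (GRCm38.p6). Of the 43 genes, 31 had a promoter in the table used. The ISRE core was written as GAAANNGAAA and read on both strands, with overlapping matches counted, and 15 of the 31 genes (48.4%) held it, beside 3.46% of all 27025 genes in the table. Counted by window, 15 of the 38 windows of these genes (39.5%) and 2.98% of all 32851 windows held it. The GAS core, TTCNNNGAA, reads the same on both strands and was held by 7 of the 31 genes (22.6%) and by 8.13% of all genes. A match is a string of letters and not a measured binding site, and its absence from this window says nothing of the rest of the gene. Dhx58, Zbp1, Ifi204, Oas2, Mx1, Mx2, Rtp4, Usp18, Parp9, Parp14, Iigp1 and Ifi27l2a had no entry. The stretches below carry the matches in genes whose levels are described further on, with 25 bases on each side where the window allows. Capitals mark the ISRE core, or the GAS core in Irf1, and each stretch is written 5′ to 3′ on the strand of its gene. The Igtp and Bst2 stretches also hold a GAS core, which is not marked as such.
Ifit1, chr19:34640760-34640838, plus strand: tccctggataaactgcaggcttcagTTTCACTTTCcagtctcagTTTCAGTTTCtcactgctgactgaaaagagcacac
Ifit3, chr19:34583348-34583441, plus strand: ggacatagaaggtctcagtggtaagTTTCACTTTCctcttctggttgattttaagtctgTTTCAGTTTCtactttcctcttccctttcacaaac
Ifit3b, chr19:34607744-34607837, plus strand: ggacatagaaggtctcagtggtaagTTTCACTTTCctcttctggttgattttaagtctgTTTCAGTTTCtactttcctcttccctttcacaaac
Isg15, chr4:156200850-156200921, minus strand: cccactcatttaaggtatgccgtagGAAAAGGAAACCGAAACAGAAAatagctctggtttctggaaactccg
Oas1a, chr5:120907526-120907570, minus strand: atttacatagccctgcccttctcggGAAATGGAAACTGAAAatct
Rsad2, chr12:26456538-26456597, minus strand: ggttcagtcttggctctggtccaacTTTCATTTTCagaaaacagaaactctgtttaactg
Bst2, chr8:71537562-71537627, minus strand: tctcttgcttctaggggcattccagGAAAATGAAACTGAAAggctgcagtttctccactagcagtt
Gbp7, chr3:142530258-142530317, plus strand: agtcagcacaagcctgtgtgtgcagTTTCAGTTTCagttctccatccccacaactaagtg
Igtp, chr11:58199497-58199555, plus strand: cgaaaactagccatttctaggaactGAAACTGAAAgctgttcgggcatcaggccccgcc
Stat2, chr10:128270251-128270310, plus strand: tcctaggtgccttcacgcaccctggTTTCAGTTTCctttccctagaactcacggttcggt
Irf1, chr11:53769899-53769957, plus strand: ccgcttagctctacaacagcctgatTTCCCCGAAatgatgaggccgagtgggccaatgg

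The Ifit3 and Ifit3b stretches were identical at 94 of 94 bases, and in each 2 cores stood on the strand opposite to the gene. Isg15 held 3 overlapping cores in a row, and Oas1a and Bst2 each held 2. The first base of the Isg15 run was 78 bases before it, that of Ifit1 was 104 bases before it and that of Oas1a only 20 bases before it. Of the ISRE cores, that of Stat2 lay farthest away, 222 bases before the start. In Irf1 no ISRE core was found and the GAS core began 90 bases before the start.

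**Figure D1:**
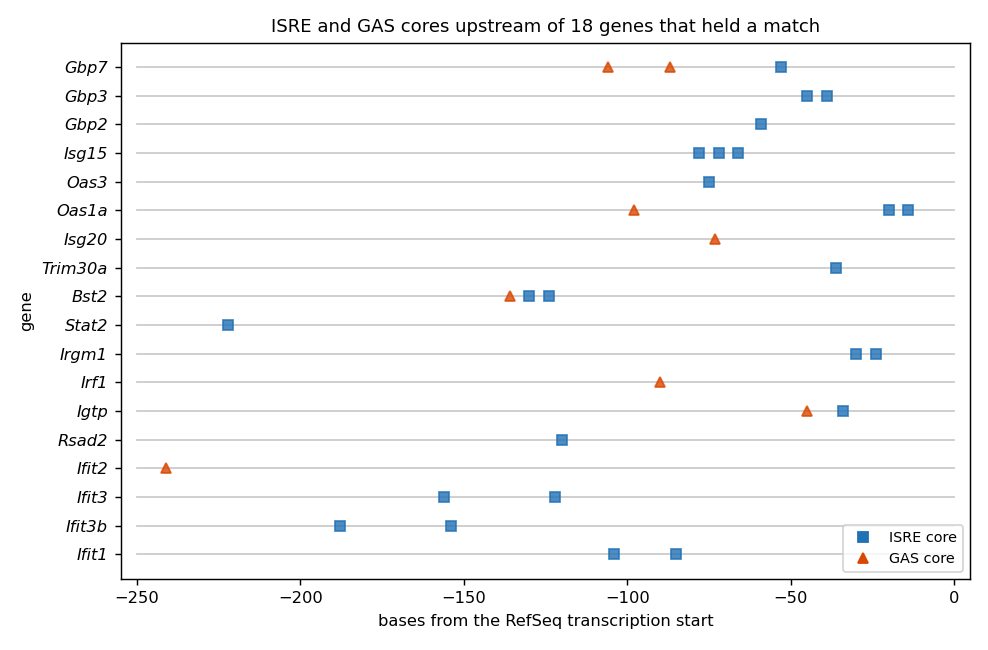
Position of the ISRE cores (blue squares) and GAS cores (orange triangles) in the 250 bases before the RefSeq transcription start, in bases from the start, for the 18 genes with a match. Isg15 shows 3 ISRE cores side by side, and Irf1, Isg20 and Ifit2 show a GAS core alone.

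Between 26473700 and 38890450 reads per mouse fell on genes. Levels are given as CPM, read counts divided by the TMM-normalized library total in units of 1000000 reads, and the values of a group are listed by rising mouse number: 159, 160 and 161 for WT PBS, 145, 146 and 147 for WT BLM, 136, 137 and 139 for KO PBS, and 141, 143 and 144 for KO BLM. Each mouse is a sample of its own, and no batch is given in the labels. Thy1 itself was at 104, 115 and 150 CPM in WT PBS and 231, 349 and 416 CPM in WT BLM mice. It was at 45.6, 96.9 and 77.4 CPM in KO PBS and 84.7, 128 and 96.4 CPM in KO BLM mice. These levels were lower in the KO mice at either treatment and without overlap, but not absent. KO PBS mice differed from WT PBS mice by a log2 fold change of -0.75 (edgeR quasi-likelihood test, adjusted p = 0.224). For KO BLM against WT BLM mice the same test gave -1.69 (adjusted p = 0.112), so neither difference passed 0.05. Of all genes tested, 10.3% and 12.9% were lower without overlap in these comparisons, in that order. The skin markers listed (keratins, loricrin, desmoglein and dermal matrix genes) were detected in all groups.

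The mice also differed in genes of growing hair, which follow the hair cycle. For 37 hair shaft and root sheath genes, which are on while hair grows, the list had a mean log2 CPM of 9.08, 9.80 and 9.33 in the WT PBS mice and of 0.09, 3.22 and 0.05 in the WT BLM mice. In the KO PBS mice it was 9.67 in mouse 136, -0.27 in mouse 137 and 2.498 in mouse 139, and in the KO BLM mice 8.64 in mouse 141, 4.67 in mouse 143 and 5.79 in mouse 144. KO PBS 136 and KO BLM 141 therefore stood apart from their groups, so results that rest on KO mice are given with and without them. All 3 WT PBS mice were in the high range and all 3 WT BLM mice in the low range, so within WT mice bleomycin and the level of the hair genes cannot be told apart. The KO BLM mice were all above the WT BLM mice for this list. Among bleomycin-treated mice, genotype and hair level can thus not be told apart either.

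In WT skin, bleomycin went with a higher level of every interferon-stimulated gene in the set. All 43 passed as higher with bleomycin at an adjusted p under 0.05 (edgeR quasi-likelihood test, Benjamini-Hochberg adjustment over 18311 genes), beside 19.8% of all genes tested that were higher and 14.1% that were lower. The lowest WT BLM mouse was above the highest WT PBS mouse for 43 of 43 genes, beside 28.3% of all genes. The median log2 fold change was 2.39, against 0.02 over all genes, and it ran from 0.94 for Isg20 to 3.68 for Oas3. As ratios of the group means in CPM, these were from 1.92-fold to 12.97-fold, with a median of 5.25-fold. Summed over the 43 genes, the level rose from 459, 455 and 567 CPM in WT PBS to 2059, 2128 and 2633 CPM in WT BLM mice. The adjusted p ran from 0.00314 to 0.0276. The call was lost for all 43 genes when the mean of the hair list was added to the model. In that fit 3 of all 18311 genes (0.0164%) were called. The median log2 fold change of the 43 was then 0.87, with 43 of 43 still positive and 24 at an unadjusted p under 0.05. The call held for 32 genes without WT PBS 160 and for 35 without WT PBS 159, where 13.9% and 14% of all genes were called in either direction. In whole skin, a change in the number of cells that make these RNAs and a change in the RNA per cell cannot be told apart.

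**Figure D2:**
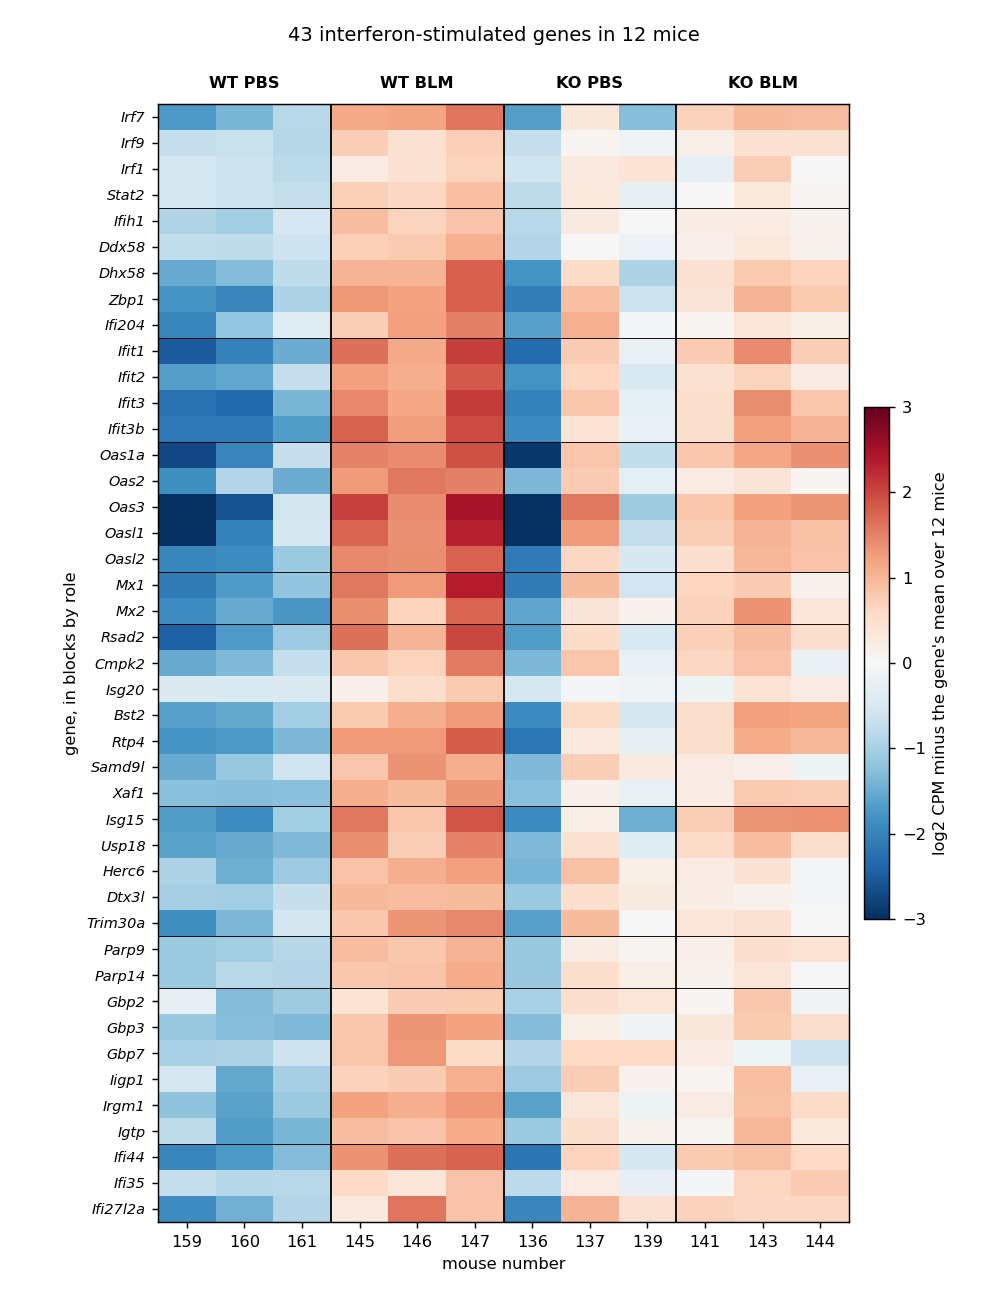
Level of the 43 genes (rows, in blocks by role) in the 12 mice (columns, by mouse number), as log2 CPM minus the mean of the gene over the 12 mice; red is above and blue below that mean. The WT PBS mice and KO PBS 136 are blue throughout, and the WT BLM mice are red.

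The 4 transcription factors of the set had the smallest median log2 fold change of the role groups, 1.38. Irf7, which amplifies the response by driving interferon alpha genes, was at 19.9, 25.5 and 36.6 CPM in WT PBS and at 144, 149 and 199 CPM in WT BLM mice, a log2 fold change of 2.58 (SE 0.46, adjusted p = 0.00594). Irf9, the DNA-binding partner of Stat2, was at 32.2, 33.2 and 29.5 CPM with PBS and 87.7, 72.9 and 86.3 CPM with bleomycin (log2 fold change 1.38, SE 0.18, adjusted p = 0.00329). Stat2 was at 42.8, 39.1 and 37.5 CPM with PBS and 100.4, 95.05 and 114 CPM with bleomycin (log2 fold change 1.38, SE 0.22, adjusted p = 0.00477). In none of the 3 did the groups overlap, and the WT BLM mice of Irf9 and Stat2 lay close together. Irf1, a factor that answers mainly to interferon gamma, had the smallest change of the 4, at 27.7, 25.4 and 22.6 CPM against 46.8, 53.5 and 63.4 CPM.

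The sensors of viral RNA and DNA, which start the alarm, rose by a median of 2.21 on the log2 scale over 5 genes. Ddx58 (RIG-I), which detects short RNA with a triphosphate end, was at 21.9, 21.6 and 24.1 CPM in WT PBS and 60.5, 62.8 and 76.4 CPM in WT BLM mice (log2 fold change 1.56, SE 0.20, adjusted p = 0.00314). Ifih1 (MDA5), the sensor of long double-stranded RNA, was at 15.3, 13.9 and 20.1 CPM with PBS and 54.8, 45.6 and 51.5 CPM with bleomycin (log2 fold change 1.62, SE 0.25, adjusted p = 0.00437). Dhx58 (LGP2), a helicase that tunes both of them, was at 4.43, 5.10 and 7.41 CPM with PBS and 25.8, 25.8 and 44 CPM with bleomycin (log2 fold change 2.49, SE 0.52, adjusted p = 0.00895). WT BLM 147 had the highest level of each of these sensors except Ifih1, where it was WT BLM 145. Zbp1, a sensor of nucleic acids in the Z form that can trigger cell death, had the largest log2 fold change of the group at 2.93, and Ifi204, of the DNA-sensing Ifi200 family, had 2.21. About 20.0% of the 50-base stretches of Ifi204 also occur in another gene, mainly Mndal, so its counts could be shared.

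The IFIT proteins bind foreign RNA and block its translation, and as a group they had the largest median log2 fold change, 3.57 over 4 genes. Ifit3 was at 5.38, 5.07 and 9.78 CPM in WT PBS and 69.4, 56.96 and 108 CPM in WT BLM mice (log2 fold change 3.53, SE 0.62, adjusted p = 0.00569). Ifit3b was at 1.72, 1.74 and 2.40 CPM with PBS and 26.2, 18.3 and 29.5 CPM with bleomycin (log2 fold change 3.65, SE 0.50, adjusted p = 0.00355). Ifit1 was at 2.502, 3.45 and 4.99 CPM with PBS and 44.1, 30.9 and 59.6 CPM with bleomycin (log2 fold change 3.62, SE 0.65, adjusted p = 0.00593). The lowest WT BLM mouse of each gene stood far above the highest WT PBS mouse. Ifit2, which lies beside them, had a log2 fold change of 2.66. All 4 sit in a run on chr19:34550694-34650009 (GRCm38, GENCODE M21). Ifit3 and Ifit3b are near copies: 51.2% of the 50-base stretches of Ifit3 and 45.0% of those of Ifit3b occur in another gene, so reads could have been assigned to either, and their separate values are uncertain.

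The oligoadenylate synthetases make the short RNA signal that activates RNase L, and the Mx GTPases trap viral particles. The median log2 fold change was 3.15 for 5 synthetases and their relatives and 3.22 for the Mx pair. Oas2 was at 5.88, 11.3 and 7.46 CPM in WT PBS and 51.05, 63.1 and 60.4 CPM in WT BLM mice (log2 fold change 2.82, SE 0.45, adjusted p = 0.00475). Oasl2 was at 11.5, 12.1 and 20.6 CPM with PBS and 121, 118 and 151 CPM with bleomycin (log2 fold change 3.14, SE 0.55, adjusted p = 0.00568). Oas1a was at 1.66, 2.76 and 6.75 CPM with PBS and 30.1, 28.8 and 40.7 CPM with bleomycin (log2 fold change 3.15, SE 0.78, adjusted p = 0.0161). Among the synthetases WT PBS mice differed widely, and Oas1a, Oas3 and Oasl1 were highest in WT PBS 161. Oas3 showed this most, at 0.947, 1.38 and 5.78 CPM in WT PBS mice, and had the largest log2 fold change of the whole set, 3.68, with the largest standard error, 1.07. Mx1 was at 1.66, 2.20 and 3.13 CPM with PBS and 21.2, 17.4 and 36.4 CPM with bleomycin (log2 fold change 3.42, SE 0.66, adjusted p = 0.00714). Mx2 was at 0.811, 1.05 and 0.892 CPM with PBS and 7.87, 4.73 and 9.97 CPM with bleomycin (log2 fold change 3.03, SE 0.50, adjusted p = 0.00487). Both Mx genes were low in every WT PBS mouse and did not overlap with WT BLM mice. Oas1a shares 57.6% of its 50-base stretches with another gene, mainly Oas1g.

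The other antiviral effectors act at many steps of infection, and their 7 members had a median log2 fold change of 2.39. Rsad2 (viperin), which makes a chain-terminating nucleotide, was at 1.89, 3.16 and 4.87 CPM in WT PBS and 32.4, 20.97 and 41.1 CPM in WT BLM mice (log2 fold change 3.25, SE 0.54, adjusted p = 0.00498). Rtp4 was at 4.19, 4.28 and 5.58 CPM with PBS and 34.4, 34.5 and 49.8 CPM with bleomycin (log2 fold change 3.08, SE 0.50, adjusted p = 0.00476). Xaf1, which favours apoptosis, was at 6.59, 6.45 and 6.65 CPM with PBS and 33.5, 30.6 and 39.3 CPM with bleomycin (log2 fold change 2.39, SE 0.31, adjusted p = 0.00314). The WT PBS mice were close together for Xaf1 and farther apart for Rsad2. Cmpk2, the neighbour of Rsad2 at chr12:26442746-26479837, had a log2 fold change of 2.22. Bst2 (tetherin), which holds budding virus at the cell surface, was at 13.8, 14.8 and 20.6 CPM with PBS and 73.1, 90.5 and 103 CPM with bleomycin, a log2 fold change of 2.44. Isg20, an exonuclease, rose least of the 43, from 6.39, 6.28 and 6.39 CPM to 9.51, 12.4 and 14.8 CPM.

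Isg15 is a ubiquitin-like protein that is attached to other proteins, Usp18 removes it and dampens the interferon receptor, and Herc6, Dtx3l and Trim30a are ubiquitin or Isg15 ligases. These 5 genes had a median log2 fold change of 2.36. Isg15 was at 5.28, 4.64 and 8.30 CPM in WT PBS and 50.7, 30.2 and 62.7 CPM in WT BLM mice (log2 fold change 2.98, SE 0.53, adjusted p = 0.00589). Usp18 was at 4.23, 4.51 and 5.12 CPM with PBS and 33.4, 21.5 and 35.7 CPM with bleomycin (log2 fold change 2.71, SE 0.39, adjusted p = 0.00398). Dtx3l was at 14.9, 14.6 and 18.7 CPM with PBS and 59.3, 56.8 and 57.98 CPM with bleomycin (log2 fold change 1.85, SE 0.32, adjusted p = 0.00560). WT BLM 146 was the lowest of its group for Isg15 and Usp18, while the 3 WT BLM mice were close together for Dtx3l. Parp9 and Parp14, of the ADP-ribosyl transferase family, lie on the same stretch as Dtx3l (chr16:35832874-35972605), and Parp9 works as a partner of Dtx3l. Parp9 was at 16.9, 17.9 and 20.3 CPM with PBS and 70.04, 63.8 and 74.8 CPM with bleomycin (log2 fold change 1.92, SE 0.29, adjusted p = 0.00423). Parp14 was at 25.5, 31.1 and 29.9 CPM with PBS and 96.2, 100.1 and 120.5 CPM with bleomycin (log2 fold change 1.87, SE 0.33, adjusted p = 0.00591). All 3 genes of the stretch thus had log2 fold changes near each other. Dtx3l and Parp9 overlap on opposite strands, and whether the counting used strand is not given in the sources used here, so reads in the overlap could belong to either.

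The interferon-inducible GTPases (guanylate-binding proteins and immunity-related GTPases) attack the vacuoles of bacteria and parasites inside cells and answer strongly to interferon gamma. Their median log2 fold change was 1.99 over 6 genes. Gbp3 was at 10.01, 9.11 and 8.89 CPM in WT PBS and 39.1, 55.95 and 51.2 CPM in WT BLM mice (log2 fold change 2.38, SE 0.32, adjusted p = 0.00329). Irgm1 was at 14.6, 10.9 and 15.5 CPM with PBS and 76.5, 71.05 and 81.8 CPM with bleomycin (log2 fold change 2.48, SE 0.40, adjusted p = 0.00476). Igtp was at 12.3, 6.58 and 8.10 CPM with PBS and 39.7, 37.5 and 44.8 CPM with bleomycin (log2 fold change 2.17, SE 0.40, adjusted p = 0.00626). WT PBS 159 was the highest of its group for Igtp, and also for Gbp2 and Iigp1. Gbp2, at 31.1, 15 and 17.6 CPM with PBS and 49.5, 63.1 and 63.5 CPM with bleomycin, had the smallest log2 fold change of the GTPases, 1.47. About 11.8% of the 50-base stretches of Igtp recur in another gene, most often the overlapping gene Irgm2. For Gbp7 the share was 12.7%, most often with Gm43802.

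Of the 3 induced genes whose role is less well defined, Ifi44 was at 1.08, 1.28 and 1.71 CPM in WT PBS and 10.8, 13.3 and 14.5 CPM in WT BLM mice (log2 fold change 3.24, SE 0.56, adjusted p = 0.00550). Ifi35 was at 20.2, 18.1 and 18.2 CPM with PBS and 49.1, 41.9 and 59.6 CPM with bleomycin (log2 fold change 1.41, SE 0.27, adjusted p = 0.00720). Ifi27l2a was at 13.6, 18.4 and 26.9 CPM with PBS and 60.8, 152 and 90.8 CPM with bleomycin (log2 fold change 2.36, SE 0.61, adjusted p = 0.0187). In Ifi27l2a the bleomycin-treated mice were spread widely, with WT BLM 146 on top. Per kilobase of exon it was the most abundant of the 43 genes in both groups, with a mean of 42.4 CPM per kb in WT PBS and 218 CPM per kb in WT BLM mice. Bst2 came next, at 18.2 and 98.5 CPM per kb. The 15 genes with an ISRE core before the start had a median log2 fold change of 2.48, the 16 without had 2.18, and the 12 with no promoter entry had 2.60.

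**Figure D3:**
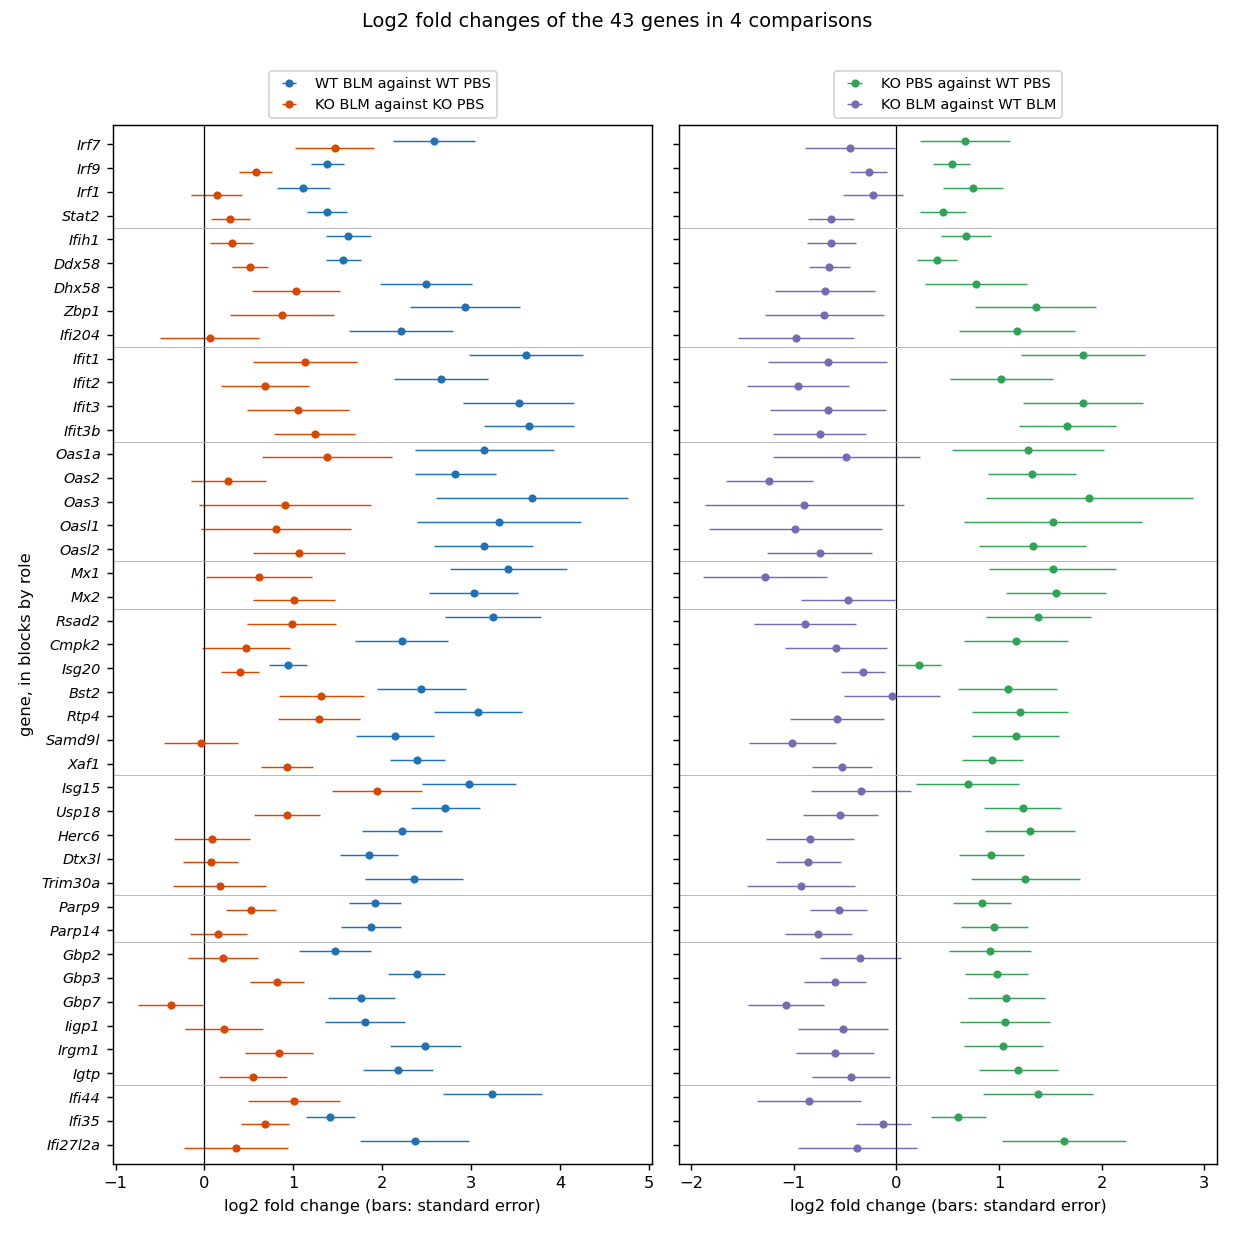
Log2 fold change of each of the 43 genes (rows, in blocks by role) with its standard error from edgeR; left, bleomycin against PBS in WT (blue) and Thy-1–KO mice (orange); right, Thy-1–KO against WT under PBS (green) and under bleomycin (purple). The blue points run from 0.94 to 3.68, the orange points from -0.38 to 1.94, and every purple point is below 0.

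In Thy-1–KO skin the same comparison of bleomycin with PBS gave a median log2 fold change of 0.68, and 0 of the 43 genes passed the threshold, beside 0.306% of all genes tested. At an unadjusted p under 0.05 there were 11, beside 3665 of all 18311 genes. In a fit of only these 2 groups there were 4, and the count over all genes in that fit is not given here. DESeq2 called 2 (Isg15 and Irf7), beside 5.95% of all genes. The log2 fold change was positive for 41 of 43 genes and ran from -0.38 for Gbp7 to 1.94 for Isg15. KO BLM mice lay wholly above KO PBS mice for 9 of 43 genes, beside 10.8% of all genes. Isg15 was at 4.49, 18.97 and 6.08 CPM in KO PBS and 28.1, 42.3 and 42.9 CPM in KO BLM mice (log2 fold change 1.94, SE 0.51, adjusted p = 0.119). Irf7 was at 20.9, 82.4 and 27.2 CPM with PBS and 107, 129 and 124 CPM with bleomycin (log2 fold change 1.46, SE 0.45, adjusted p = 0.148). For both genes every KO BLM mouse was above every KO PBS mouse. Bst2 was at 11.3, 63.03 and 29.97 CPM with PBS and 61.7, 99.98 and 97.5 CPM with bleomycin (log2 fold change 1.31, SE 0.48, adjusted p = 0.177), and here KO BLM 141 was just below KO PBS 137. Gbp7 was at 5.52, 15.2 and 15.2 CPM with PBS and 11.7, 9.27 and 6.57 CPM with bleomycin (log2 fold change -0.38, SE 0.37, adjusted p = 0.574), with KO PBS 137 and 139 above all KO BLM mice.

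These values depended on which KO PBS mouse entered. KO PBS 136 was below both of its group mates for 43 of 43 genes, and KO PBS 137 was above KO PBS 136 by a median of 4.23-fold, from 1.40-fold for Isg20 to 33.1-fold for Oas3. The coefficient of variation of a gene within the KO PBS group had a median of 65.2%, against 27.7% in WT PBS, 18.4% in WT BLM and 16.5% in KO BLM mice. Without KO PBS 137 the median log2 fold change in Thy-1–KO skin was 1.16 and 2 genes passed (Isg15 and Irf7), among 14 genes called. Without KO PBS 136 it was 0.29 with 0 passing, while 2632 genes were called in all (14% of those tested), and without both KO PBS 136 and KO BLM 141 it was 0.41 with 8 passing. Of those 8, Isg15, Bst2, Xaf1, Ifi35, Irf9, Rtp4 and Ifit3b were higher and Gbp7 was lower in KO BLM mice. In that fit 4164 of all 18688 genes tested (22.3%) were called, a larger share than among the 43. With the hair list in the model 27 of the 43 passed, among 1712 genes called (9.35% of those tested), with a median of 1.20.

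**Figure D4:**
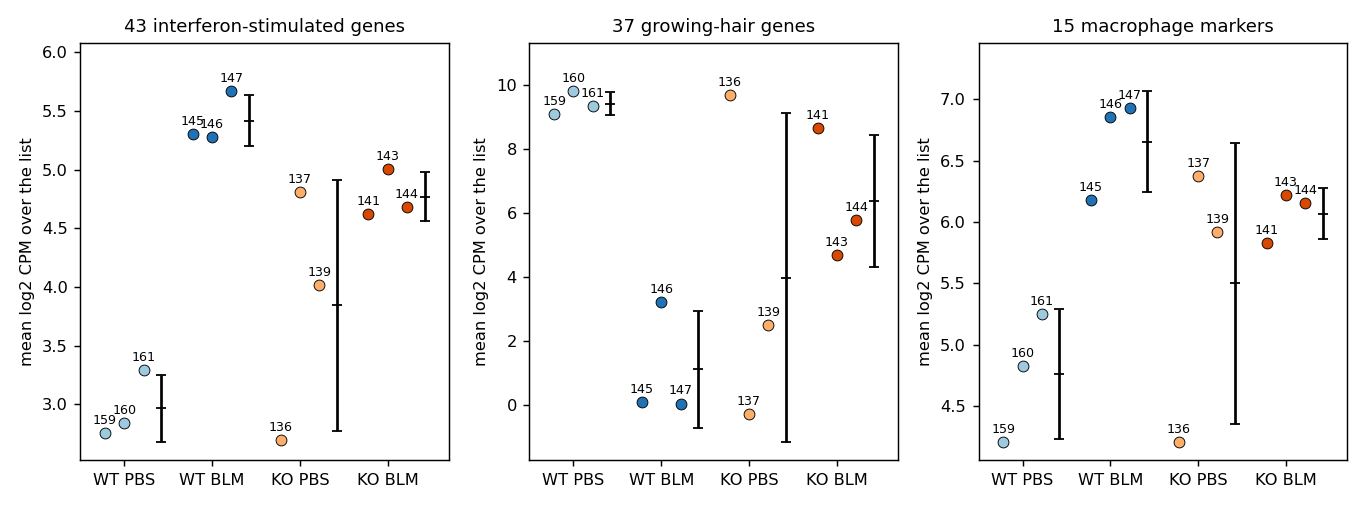
Mean log2 CPM over the 43 interferon-stimulated genes (left), 37 genes of growing hair (middle) and 15 macrophage markers (right) in each mouse, with the mouse number; the black bar is the group mean ± SD of 3 mice. KO PBS 136 sits with the WT PBS mice in all 3 panels, while KO BLM 141 sits near the WT PBS mice for the hair genes but with its own group for the interferon-stimulated genes.

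Averaged over the 43 genes, the mean log2 CPM was 2.76, 2.85 and 3.29 in WT PBS, 5.30, 5.28 and 5.67 in WT BLM, 2.70, 4.81 and 4.02 in KO PBS and 4.62, 5.01 and 4.69 in KO BLM mice. KO PBS 136, whose hair genes were high, was within the WT PBS range for 26 genes and below it for 17. KO PBS 137 and KO PBS 139, whose hair genes were low, were above the highest WT PBS mouse for 43 and 37 genes. KO BLM 141, whose hair genes were nearly as high as in WT PBS mice, was above the highest WT PBS mouse for 43 of 43 genes. Macrophage markers varied among the mice as well, and the 15 on the list had a mean log2 CPM of 4.20, 4.82 and 5.25 in WT PBS, 6.18, 6.86 and 6.93 in WT BLM, 4.20, 6.37 and 5.92 in KO PBS and 5.83, 6.22 and 6.16 in KO BLM mice. Summed, they ran from 498 to 1113 CPM in WT PBS, from 2557 to 3756 CPM in WT BLM, from 522 to 2438 CPM in KO PBS and from 1757 to 2468 CPM in KO BLM mice. In WT mice 12 of the 15 were higher with bleomycin, and none of the 15 was at 0 in a group. Over all genes tested the share higher was 19.8%, which stands beside this count and those of the lists that follow. The list of 14 T and NK cell markers had 12 higher in WT BLM mice and a summed level of 26.3 to 29.5 CPM in WT PBS and 76.2 to 105 CPM in WT BLM mice, and 26.2 to 68.6 CPM in KO PBS and 76.7 to 135 CPM in KO BLM mice. Of 9 markers of plasmacytoid dendritic cells, known as makers of interferon alpha, 3 were higher in WT BLM mice, and Siglech had a group mean of at most 1.51 CPM. The 9 summed to 409 to 489 CPM in WT PBS, 620 to 936 CPM in WT BLM, 402 to 670 CPM in KO PBS and 551 to 1324 CPM in KO BLM mice. Nearly all of that level came from genes other than Siglech, and whether it came from these cells was not tested. Skeletal muscle genes, from the muscle sheet under the skin, varied too: 11 of 12 on the list were higher in WT BLM mice, and their summed level was 6309 to 7080 CPM in WT PBS, 21589.5 to 43651 CPM in WT BLM, 8160 to 33857 CPM in KO PBS and 12761 to 24027 CPM in KO BLM mice. The muscle list was lowest of its group in KO PBS 136, as the 43 genes were, and none of the 12 was at 0 in a group. Of 11 fibroblast matrix genes, 9 were higher in WT BLM mice, and of 8 neutrophil markers 4 were higher, 3 (Ly6g, Mpo and Elane) having too few counts to be tested. The summed matrix level was 7067 to 9513 CPM in WT PBS, 16021 to 45965 CPM in WT BLM, 6453 to 20267 CPM in KO PBS and 11184 to 27605 CPM in KO BLM mice. The summed level of the tested neutrophil markers was 10.01 to 15.3 CPM in WT PBS, 66.3 to 460.1 CPM in WT BLM, 9.89 to 24.4 CPM in KO PBS and 20.2 to 298 CPM in KO BLM mice. The part of these cells and of the hair cycle in the levels of the 43 genes was not tested.

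Under PBS alone, all 43 genes had a higher fitted level in Thy-1–KO than in WT skin, but 0 passed the threshold, beside 0.0655% of all genes. The median log2 fold change was 1.16, from 0.22 for Isg20 to 1.88 for Oas3, 32 genes had an unadjusted p under 0.05 and the adjusted p ran from 0.204 to 0.527. Over all genes 3727 of 18311 had an unadjusted p under 0.05. In a fit of only these 2 groups 10 of the 43 did, and the count over all genes in that fit is not given here. DESeq2 called 4 genes (Usp18, Mx2, Ifit3 and Ifit3b), beside 3.69% of all genes. The groups overlapped for all 43 genes, since KO PBS 136 lay within or below the WT PBS mice, so 0 of 43 were without overlap beside 8.62% of all genes. Ifit3 was at 6.28, 44.3 and 20.9 CPM in KO PBS mice, a log2 fold change over WT PBS of 1.82 (SE 0.59, adjusted p = 0.204). Mx2 was at 0.997, 3.89 and 3.22 CPM (log2 fold change 1.55, SE 0.48, adjusted p = 0.204). Usp18 was at 5.09, 17.5 and 9.92 CPM (log2 fold change 1.23, SE 0.37, adjusted p = 0.204). In each of the 3 genes KO PBS 137 was highest and KO PBS 136 lowest. Without KO PBS 136, 40 of the 43 genes passed among 6870 genes called (36.7% of those tested), with a median of 1.52. Without KO PBS 136 and KO BLM 141, 39 passed among 7648 (40.9%). Without KO PBS 137 the median was 0.59 with 0 passing, and with the hair list in the model it was -0.04, with 20 genes positive and 23 negative.

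Among bleomycin-treated mice the order was the opposite: all 43 genes had a lower fitted level in Thy-1–KO than in WT skin. The median log2 fold change was -0.63, from -1.28 for Mx1 to -0.04 for Bst2, and 0 of 43 passed the threshold, beside 0.0928% of all genes. At an unadjusted p under 0.05 there were 8, near the level over all genes (3043 of 18311). In a fit of only these 2 groups there were 29. The count over all genes in that fit is not given here, so the 29 cannot be set against it. DESeq2 called 0, beside 2.99% of all genes. As ratios of the group means, KO BLM skin had from 0.412 to 0.971 of the WT BLM level, with a median of 0.645. KO BLM mice lay wholly below WT BLM mice for 29 of 43 genes, beside 12.9% of all genes. The 2 groups were also wholly apart for the hair list, with mean log2 CPM of 0.05 to 3.22 in WT BLM and 4.67 to 8.64 in KO BLM mice. Genotype and hair level cannot be told apart in this comparison. Mx1 was at 11.2, 12.1 and 7.67 CPM in KO BLM and 21.2, 17.4 and 36.4 CPM in WT BLM mice (log2 fold change -1.28, SE 0.60, adjusted p = 0.314). Oas2 was at 24.8, 27.3 and 22.02 CPM in KO BLM and 51.05, 63.1 and 60.4 CPM in WT BLM mice (log2 fold change -1.24, SE 0.43, adjusted p = 0.254). Gbp7 was at 11.7, 9.27 and 6.57 CPM in KO BLM and 17.97, 24.98 and 14.96 CPM in WT BLM mice (log2 fold change -1.07, SE 0.37, adjusted p = 0.253). In these 3 genes all KO BLM mice were below all WT BLM mice. Ddx58, with the smallest adjusted p of the comparison, was at 41.01, 45.9 and 40.1 CPM in KO BLM and 60.5, 62.8 and 76.4 CPM in WT BLM mice (log2 fold change -0.65, SE 0.20, adjusted p = 0.234). Isg15 was at 28.1, 42.3 and 42.9 CPM in KO BLM and 50.7, 30.2 and 62.7 CPM in WT BLM mice, where WT BLM 146 was within the KO BLM range. Bst2 was at 61.7, 99.98 and 97.5 CPM in KO BLM and 73.1, 90.5 and 103 CPM in WT BLM mice, and the groups overlapped widely. Without KO PBS 136, which enters the shared estimate of spread, 9 genes passed as lower among 1292 called (6.89% of those tested). Without KO PBS 136 and KO BLM 141, 4 passed (Gbp7, Ddx58, Parp14 and Dtx3l) among 815 (4.36%). With the hair list in the model the median turned to 0.30, with 33 genes positive and 10 negative, and 0 passed, beside 0.142% of all genes.

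**Figure D5:**
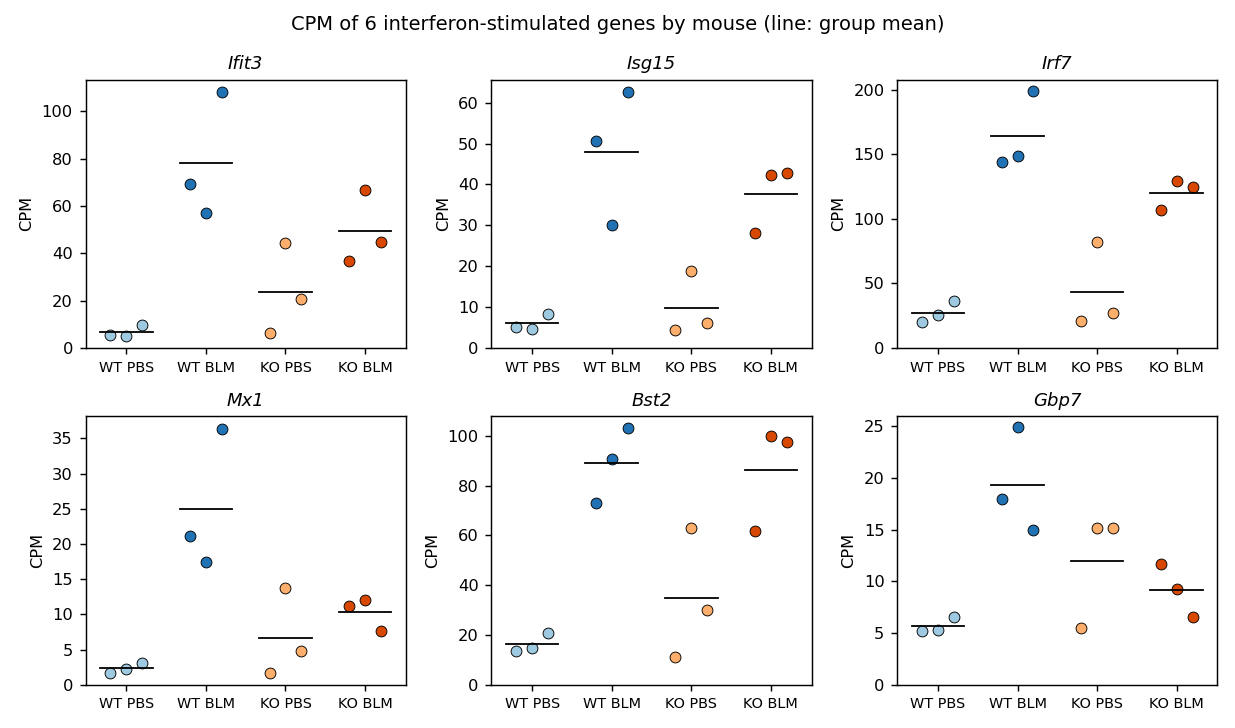
CPM of Ifit3, Isg15, Irf7, Mx1, Bst2 and Gbp7 in each mouse (points) and the group mean (line), on linear axes that start at 0. WT PBS mice are low for all 6 genes, KO PBS mice are spread, and KO BLM mice are wholly below WT BLM mice for Irf7, Mx1 and Gbp7 but overlap them for Ifit3, Isg15 and Bst2.

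Whether bleomycin acted differently in the 2 genotypes was tested directly, with the log2 fold change in Thy-1–KO minus that in WT mice. It was negative for all 43 genes, with a median of -1.78 and a range from -2.80 for Mx1 to -0.55 for Isg20. None passed the threshold in edgeR (0 of 43, beside 0% of all genes), 34 had an unadjusted p under 0.05, beside 5687 of all 18311 genes, and the adjusted p ran from 0.0702 to 0.315. DESeq2 called 28 of the 43, among 3253 genes (17.8%). Oas2 had -2.56 (SE 0.61, adjusted p = 0.0702) and Gbp7 had -2.15 (SE 0.52, adjusted p = 0.0702). Isg15 had -1.04 (SE 0.70, adjusted p = 0.315). By role, the median difference was -2.51 for the oligoadenylate synthetases, -2.45 for the IFIT proteins, -1.60 for the GTPases and -1.03 for the transcription factors. This contrast subtracts the group means of the other 4 comparisons and is no separate evidence for them. Without KO PBS 136, 40 of 43 genes passed among 7470 (39.9% of those tested). Without KO PBS 136 and KO BLM 141, 38 passed among 7218 (38.6%). With the hair list in the model the median was 0.28, with 33 genes positive and 10 negative, and 0 passed, beside 0% of all genes.

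The interferons themselves were hardly counted. Of 21 interferon genes looked for, 0 had enough counts to be tested, and no mouse had more than 9 counts on any of them. Ifng, the gene for interferon gamma, had 1, 0 and 0 counts in WT PBS, 1, 2 and 1 in WT BLM, 0, 2 and 3 in KO PBS and 6, 9 and 2 in KO BLM mice. Ifnb1, for interferon beta, had 1 count in each of 3 mice (WT BLM 147, KO PBS 137 and KO BLM 143). With so few counts no difference between groups was tested. The Ifng counts of the KO BLM mice did not overlap in CPM with those of the WT BLM mice, but rest on a total too small for the filter.

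Of the genes upstream of the 43, the receptors had a median log2 fold change of 0.90. The counts of higher and lower genes given next stand beside 19.8% and 14.1% of all genes tested. Of 6 receptor chains, 5 rose in WT mice given bleomycin, among them Ifnar1 (46.5, 48.5 and 49.4 against 61.6, 82.6 and 72.5 CPM, log2 fold change 0.59, adjusted p = 0.00843) and Ifnar2 (log2 fold change 1.24, adjusted p = 0.0130). Of the receptor kinases, Jak1 was at 108, 123 and 153 CPM with PBS and 229, 226 and 226 CPM with bleomycin (log2 fold change 0.82, SE 0.24, adjusted p = 0.0262), and Tyk2 also rose (log2 fold change 0.34, adjusted p = 0.0347). Jak2 had a log2 fold change of 0.40 (adjusted p = 0.0601). Of 13 genes that lead to the making of interferon, 8 were higher, including the endosomal receptors Tlr7 (log2 fold change 2.24, adjusted p = 0.0149) and Tlr9 (log2 fold change 2.69, adjusted p = 0.00700) and the factor Irf8 (log2 fold change 2.01, adjusted p = 0.00578), and 0 were lower. Irf3, which is activated by phosphorylation, was at 97.3, 94.8 and 68.9 CPM with PBS and 85.5, 68.2 and 84.95 CPM with bleomycin (adjusted p = 0.557). Of 7 feedback inhibitors, 3 were higher, Socs3, Ptpn6 and Irf2, while Socs1 had a log2 fold change of 0.51 (adjusted p = 0.255). A further 72 interferon-induced genes outside the set were tested, 63 of which rose and 0 fell in WT BLM mice, with a median log2 fold change of 1.65. Among these Apol9a (4.35), Ms4a4c (4.02) and Slfn4 (3.74) rose most. The chemokine genes Cxcl10 and Cxcl9, whose products attract T cells, had log2 fold changes of 2.45 (adjusted p = 0.0102) and 0.89 (adjusted p = 0.295). In the KO BLM against KO PBS, KO PBS against WT PBS and KO BLM against WT BLM comparisons, 0 genes of these lists passed the threshold. Over all genes tested, 0.306%, 0.0655% and 0.0928% passed in these comparisons.

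Among the 12 mice, WT BLM 147 had the highest level for 33 of the 43 genes, WT BLM 146 for 5, WT BLM 145 for 3 and KO BLM 143 for 2. The lowest level was in KO PBS 136 for 17 genes, in WT PBS 159 for 14, in WT PBS 160 for 9 and in WT PBS 161 for 3. KO BLM 143 had as much of some members as WT BLM mice: it was at or above the lowest WT BLM mouse for 14 genes, KO BLM 144 for 5 and KO BLM 141 for 2. The neighbouring genes of the Gbp run (chr3:142530342-142638008) differed among KO BLM mice, with Gbp2 at 38.8, 64.8 and 34.6, Gbp3 at 27.98, 37.99 and 30.9 and Gbp7 at 11.7, 9.27 and 6.57 CPM. Gbp2 and Gbp3 were highest in KO BLM 143, while Gbp7 was highest in KO BLM 141.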

How the data were processed

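RNA-Seq counts from the skin of 12 mice were used, 3 in each of 4 groups. Per the study's methods, the authors prepared stranded mRNA libraries and sequenced them as read pairs. The deposited table holds whole-number read counts per gene symbol without normalization, in 1 column per mouse. The submitters' processing notes name the build GRCm38.p6 and MultiQC 1.7. The aligner, counter, annotation and use of strand are not given in the sources used here. The authors tested with DESeq2.

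Totals ran from 26473700 to 38890450 counts. Of the 34689 genes with a count, 18311 passed filterByExpr at its defaults (a scaled minimum of 10 counts in enough mice and of 15 over all mice). A quasi-likelihood model of 4 group means was fitted in edgeR 4.0.16 (R 4.3.3) after TMM normalization. The common dispersion was 0.122, a biological coefficient of variation of 34.9%. Tests were adjusted by Benjamini-Hochberg over all genes tested, with a threshold of 0.05. Log2 CPM used a prior count of 2. An exact test of 3 mice against 3 could not have passed the threshold, so only the model across all genes was used. Each p-value sets a difference between groups against the spread between mice. That spread was estimated for all 4 groups together, although the KO PBS mice were spread more widely than the others. The steps were tested on simulated data.

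The 43 genes, their roles and the lists of pathway, marker and hair genes were chosen with earlier results of these data known. Genes are named with log2 fold change, SE and adjusted p for up to 3 members of each role group with the smallest adjusted p in WT BLM against WT PBS. Other members were named after their values were seen. The 54402 symbols (98.1%) with 1 match in GENCODE M21 (GRCm38) gave positions and exon lengths, and shared sequence was counted as 50-base stretches of a gene's transcripts found in another gene. Promoters came from RefSeq (GRCm38.p6).

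The alternatives were DESeq2 1.42.0, RLE and upper-quartile normalization, other filters, a fit of only the 2 groups compared, the hair list as a covariate, medians without the near copies, and leaving out each mouse in turn or KO PBS 136 and KO BLM 141 together. Median fold changes under DESeq2 and with the hair list were added after seeing the data. A gene of the pathway lists is not reported here.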

Additional observations from a re-analysis of the deposited data

How the results depend on the processing

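No paired analysis was possible because every mouse has its own number. In WT mice the count of genes higher with bleomycin stayed at 43 of 43 under all alternatives except 2 kinds: it was 32 to 43 when a mouse was left out, and 0 with the hair list as a covariate, where the median log2 fold change was 0.87 and the cause was not tested. With that covariate 3 of all 18311 genes (0.0164%) were called. In KO BLM against KO PBS, 0 genes passed except 2 with DESeq2, 27 with the hair covariate, 0 to 2 with a mouse left out and 8 without KO PBS 136 and KO BLM 141 together. Of all genes tested, 9.35% were called with the hair covariate and 22.3% without both mice. In KO PBS against WT PBS, DESeq2 gave 4, leaving out a mouse gave 0 to 40 with a median of 0.59 to 1.52, leaving out both mice gave 39, and the hair covariate moved the median to -0.043. In KO BLM against WT BLM, leaving out a mouse gave 0 to 9, both mice 4, and the hair covariate moved the median to 0.30. For the difference of responses DESeq2 gave 28, leaving out a mouse 0 to 40, both mice 38, and the hair covariate moved the median to 0.28. Other normalizations and filters left the count of genes passing as it was in each comparison, as did a fit of only the 2 groups compared, which was not made for the difference of responses. In that fit the genes at an unadjusted p under 0.05 became 4 in place of 11 (KO BLM against KO PBS), 10 in place of 32 (KO PBS against WT PBS) and 29 in place of 8 (KO BLM against WT BLM). The matching counts over all genes are not given here, so these changes cannot be set against them. The genes left out as near copies were chosen by name and not by the measured share: Ifit3, Ifit3b, Gbp3, Gbp7, Oas1a, Ifi204 and Trim30a. Of these, Gbp3 shared only 3.75% and Trim30a 5.98% of its 50-base stretches with another gene. Igtp (11.8%), Rtp4 (11.6%), Herc6 (12.5%) and Ifit1 (7.13%), which shared more than those 2, were kept. Leaving out the near copies was tried on the medians alone, which were then 2.42, 0.65, 1.07, -0.62 and -1.73 for the 5 comparisons in the order above. With 3 mice a group, the spread within KO PBS limits what the KO comparisons can show.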
